A study of Cucurbita moschata with 6 samples.

Results

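Of the genes lowest in SR relative to SCK hypocotyls of pumpkin (Cucurbita moschata), 4 were grouped as dark- and starvation-type, a name not tested. They are CmoCh03G006730 (rhodanese-like domain-containing protein 15, chloroplastic), CmoCh18G001780 (BTB/POZ and TAZ domain-containing protein 1-like, here BT1-like), CmoCh11G007030 (beta-galactosidase-like) and CmoCh01G012820 (probable aminotransferase TAT2). These 4 of the 32205 genes in the deposited table were chosen because their levels were much lower in SR than in SCK, so their own difference between the groups is given as a description, with no test. All 4 were among the 23509 genes tested, which had at least 1 FPKM (read fragments scaled to transcript length and library size) in at least 3 libraries. The study sequenced poly(A) RNA from hypocotyls of seedlings with unfolded cotyledons, which grew at 28 °C during 14 h of artificial light and at 18 °C during 10 h of darkness, in 3 SCK and 3 SR libraries. The series is on far-red light and hypocotyl elongation and names 1 treatment and 1 control. The labels spell out neither SCK nor SR and list 120 s of far-red light on all 6 samples; SCK is taken as the control because CK commonly stands for one. No label says that the libraries of a group came from separate plants, so the replicate spread behind each p-value may be technical.

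Plants kept in darkness, or otherwise short of sugar, switch from building reserves to using them. In Arabidopsis the kinase SnRK1 is active when sugar is low, trehalose 6-phosphate, a signal of sucrose supply, inhibits it, and a set of dark-inducible or DIN genes is switched on. The rhodanese-like protein named SEN1 or DIN1 in Arabidopsis is a much-used marker of darkness and senescence. Beta-galactosidases take galactose off cell wall polysaccharides and other glycans, and DIN2 and DIN6 of the same gene set encode a beta-glucosidase and an asparagine synthetase. BTB/POZ and TAZ domain proteins are scaffold proteins of the nucleus and cytosol, and Arabidopsis BT2 responds to sugar, nitrogen and the time of day. Tyrosine aminotransferases remove the amino group of tyrosine, the first step both of its breakdown and of the route to tocopherol (vitamin E).

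The libraries held 52300725 to 72356397 deposited counts. With edgeR's quasi-likelihood test and Benjamini-Hochberg adjustment over the 23509 genes, 14.4% of genes passed an adjusted p of 0.05, 7.20% as rises and 7.16% as falls, and 2.59% were falls of at least 2-fold. These shares are the background for every count below. They depended on which libraries were used. With SCK replicate 1 left out, falls made up 3.57% of genes and rises 3.13%; with SCK replicate 2 left out, 3.98% and 3.11%. Leaving out the SR libraries 1, 2 and 3 in turn gave falls of 6.84%, 4.53% and 1.23% and rises of 7.78%, 3.90% and 1.08%. The fit that lacked SCK replicate 3 gave falls and rises of 0%, since edgeR made 0 calls (5558 genes had an unadjusted p under 0.05), so every edgeR call given below was lost there; DESeq2 without that library called 7.57% as rises and 7.77% as falls. In bulk tissue, fewer cells of a type and less RNA per cell cannot be told apart. A hypocotyl has no single defining marker gene, so the tissue label could not be checked in that way.

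The rhodanese-like gene CmoCh03G006730 lies on chromosome 3 at 5979235 to 5980793 on the plus strand, a span of 1559 bases (no source used here names the genome build). Its level was 1074 FPKM in SCK replicate 1, 350 in replicate 2 and 639 in replicate 3, against 49.2, 104 and 15.9 in SR replicates 1 to 3. The lowest SCK library stood 3.37-fold above the highest SR library, so the groups did not overlap. The group means were 687 ± 364 FPKM in SCK and 56.4 ± 44.4 in SR (SD, n = 3 each), a 12.2-fold difference. The fitted log2 difference was -3.78 ± 0.74 (SE), the seventh largest fall among the tested genes. The gene ranked 81 by mean level among the tested genes in SCK and 2050 in SR. Its libraries were uneven in both groups: the highest exceeded the lowest 3.07-fold in SCK and 6.52-fold in SR, and only 5.31% and 1.58% of tested genes had larger ratios. The deposited counts were between 12563 and 41933 in SCK and between 725 and 5136 in SR.

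The BT1-like gene CmoCh18G001780 lies on chromosome 18 at 1224378 to 1225371 on the minus strand, a span of 994 bases. It stood at 651, 405 and 491 FPKM in SCK replicates 1 to 3 and at 76.6, 51.6 and 16.7 FPKM in SR replicates 1 to 3. The groups were farther apart than for the rhodanese-like gene, since the lowest SCK library was 5.28-fold above the highest SR library. The means were 515 ± 125 and 48.3 ± 30.1 FPKM (SD, n = 3 each), 10.7-fold apart, with a log2 difference of -3.55 ± 0.56 (SE). It ranked 127 by level in SCK and 2508 in SR. The unevenness lay in SR, where the highest library was 4.59-fold above the lowest, against 1.61-fold in SCK; 2.70% and 25.3% of tested genes had larger ratios. It was the 1 gene of the 4 that was highest in SR replicate 1 among the SR libraries.

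The beta-galactosidase-like gene CmoCh11G007030 lies on chromosome 11 at 3392375 to 3397886 on the plus strand, a span of 5512 bases. Its SCK libraries read 485, 361 and 430 FPKM and its SR libraries 47.0, 58.5 and 25.7 FPKM, in replicate order. It had the widest gap of the 4, with the lowest SCK library 6.18-fold above the highest SR library. The means were 425 ± 61.7 and 43.8 ± 16.6 FPKM (SD, n = 3 each), a 9.72-fold difference, and the log2 difference was -3.43 ± 0.33 (SE), with the smallest SE of the 4. The highest SCK library was 1.34-fold above the lowest, a ratio that 45.9% of tested genes exceeded. In SR the ratio was 2.27. Its rank by level went from 157 in SCK to 2867 in SR.

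The aminotransferase gene CmoCh01G012820 lies on chromosome 1 at 10226696 to 10229971 on the plus strand, a span of 3276 bases. It stood at 46.8, 3.43 and 16.1 FPKM in SCK replicates 1 to 3 and at 1.20, 2.66 and 1.16 FPKM in SR replicates 1 to 3. Although the groups did not overlap, SCK replicate 2 was only 1.29-fold above SR replicate 2. The SD of SCK was as large as its mean, 22.1 ± 22.3 FPKM, against 1.67 ± 0.857 in SR (n = 3 each). The 13.2-fold ratio of the means was the largest of the 4, and the log2 difference of -3.90 ± 0.93 had the largest SE. Both numbers rested on the control library with the highest level: leaving out SCK replicate 1 gave a log2 difference of -2.67, leaving out SCK replicate 2 gave -4.41. The highest SCK library was 13.7-fold above the lowest, and 1.10% of tested genes had a larger ratio. It was also the least abundant of the 4, at rank 6027 in SCK and 22061 in SR, with 366 to 5435 deposited counts in SCK and 157 to 391 in SR.

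**Figure D1:**
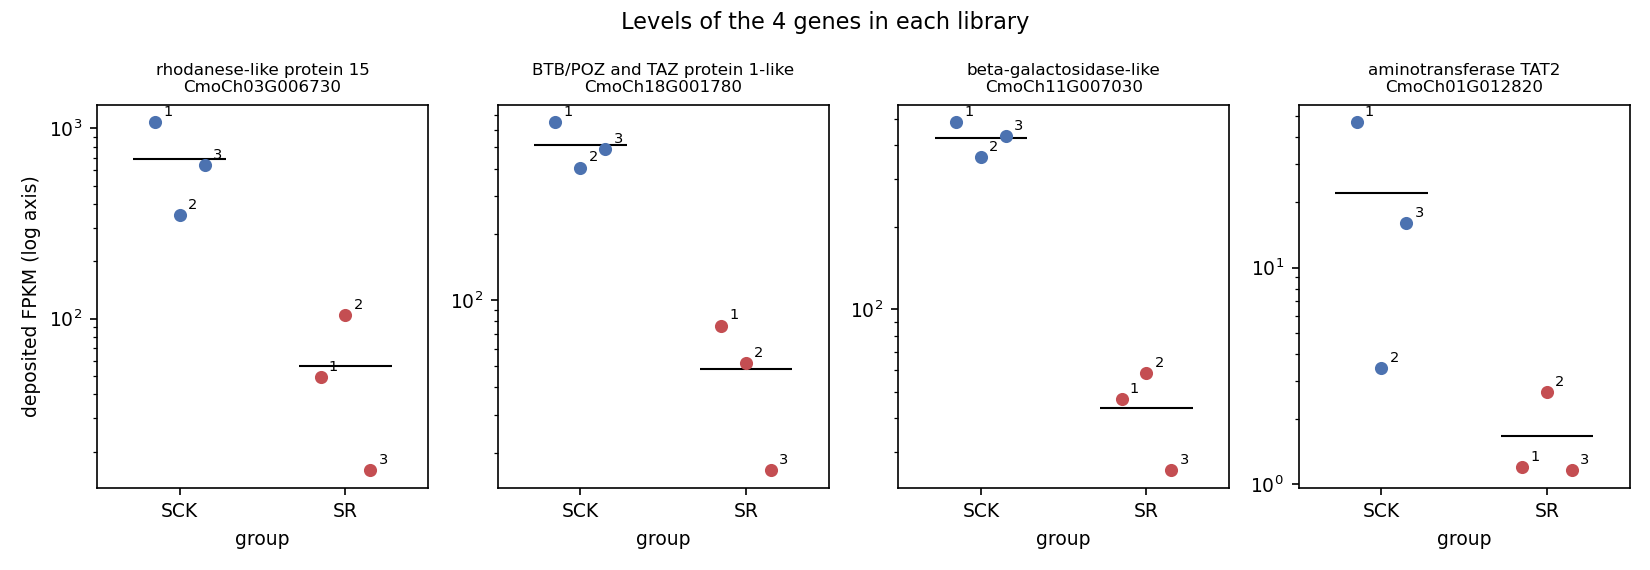
Deposited FPKM (log axis) of each of the 4 genes in the 3 SCK and 3 SR libraries, 1 point per library with its replicate number, and the group mean as a line. All SR points lie below all SCK points; the SCK points of TAT2 run from 3.43 to 46.8 FPKM, those of the beta-galactosidase-like gene from 361 to 485.

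The 4 genes shared the order of the control libraries. Each was highest in SCK replicate 1, intermediate in replicate 3 and lowest in replicate 2, an order held by 23.1% of all tested genes and by 675 of the 1683 called falls (40.1%). The distance between the extremes differed by gene, from 1.34-fold for the beta-galactosidase-like gene to 13.7-fold for TAT2. Between SCK replicate 2 (0%) and SCK replicate 1 (100%), SCK replicate 3 lay at 39.9% for the rhodanese-like gene, 34.9% for BT1-like, 55.7% for the beta-galactosidase-like gene and 29.1% for TAT2. The intermediate place was common: of 2760 tested genes whose SCK replicates 1 and 2 were at least 2-fold apart, 2375 had replicate 3 in between, at a median place of 37.2%. Picking genes by a wide distance between replicates 1 and 2 itself favours an intermediate replicate 3. In SR, replicate 3 was the lowest library for all 4 genes. Overlap between the groups was judged on the deposited FPKM values, to which no scaling factors were applied. Groups that did not overlap, with SR lower, made up 12.7% of tested genes, and those with SR higher 27.9%. All 4 chosen genes were among those with SR lower, as their choice favoured. The larger share with SR higher depends on this scale: edgeR called 11.1% rises and 4.91% falls when unscaled, but 7.20% and 7.16% when scaled. Overlap on scaled values was not tested. No gene ontology or KEGG pathway term in the deposited table was shared between any of the 4.

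Leaving out 1 library at a time kept the sign of all 4 differences. The log2 difference ran from -4.51 (without SR replicate 2) to -3.26 (without SCK replicate 1) for the rhodanese-like gene, from -4.10 (without SR replicate 1) to -3.14 (without SR replicate 3) for BT1-like, and from -3.66 (without SR replicate 2) to -3.16 (without SR replicate 3) for the beta-galactosidase-like gene. For the beta-galactosidase-like gene both ends came from leaving out an SR library.

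**Figure D2:**
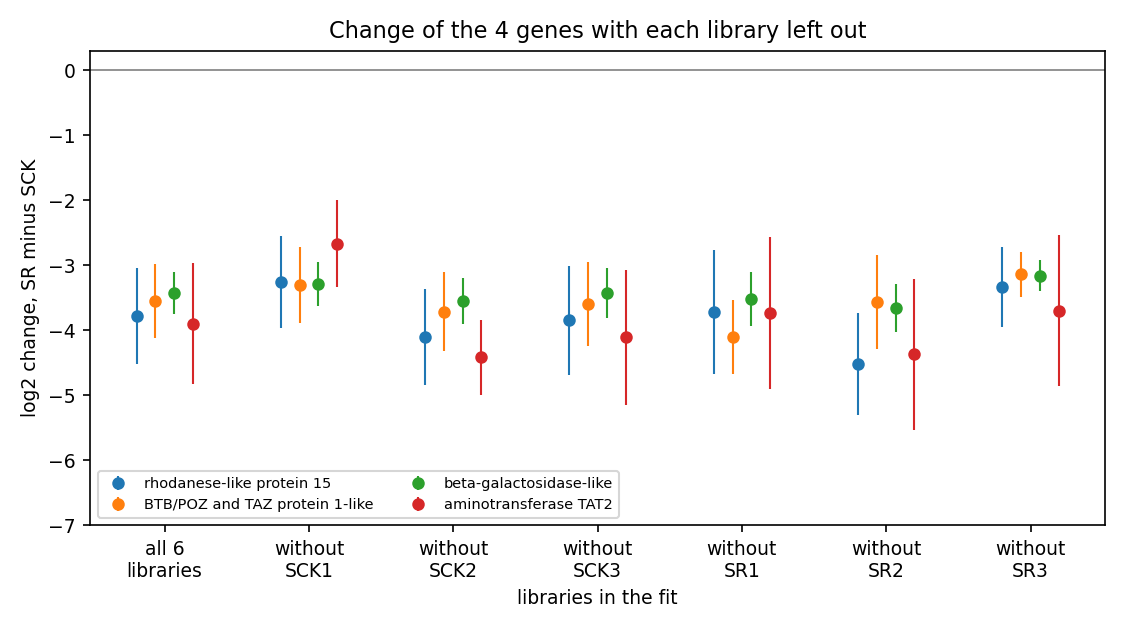
Log2 difference, SR minus SCK, of the 4 genes with all libraries and with each library left out; bars show the SE of the fit. TAT2 moves most, from -4.41 to -2.67, and the beta-galactosidase-like gene least, from -3.66 to -3.16.

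Most genes of the rhodanese family were not called, as held for all tested genes. Rhodanese domains carry sulfur in sulfurtransferases, and many plant proteins with the domain sit in the chloroplast. Of the 16 other rhodanese-like and sulfurtransferase genes 14 were tested, 1 fell and 0 rose, a share of falls near the background. Their median log2 difference was -0.03 against 0.01 over all tested genes. The 1 called gene was CmoCh14G000610 (rhodanese-like domain-containing protein 10), at 58.9, 55.1 and 58.6 FPKM in SCK and 44.6, 32.4 and 31.2 in SR, with a log2 difference of -0.81 ± 0.18 (SE; edgeR adjusted p = 0.0302). Its call was lost without SCK replicate 1, SCK replicate 2, SR replicate 2 or SR replicate 3, where the adjusted p was 0.0729, 0.0601, 0.0720 and 0.103. The most abundant other gene, CmoCh16G000360 (rhodanese-like domain-containing protein 14), had means of 341 ± 20.0 and 263 ± 54.9 FPKM (SD, n = 3 each) and did not pass (adjusted p = 0.132); leaving out SR replicate 1 gave it 0.0498, and 2 falls in the family. The chosen gene supplied 62.1%, 36.6% and 50.2% of the summed FPKM of the whole family in SCK replicates 1 to 3, but 7.40%, 17.6% and 2.87% in SR replicates 1 to 3.

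BTB/POZ and TAZ genes are few, and 3 of the 6 others fell. The closest to the chosen gene was CmoCh18G001790, which carries the same product name and lies 359 bases from it on the same strand. It stood at 150, 120 and 129 FPKM in SCK and at 22.1, 16.5 and 5.78 FPKM in SR, so that its libraries stood in the same order as those of the chosen gene in both groups. Its log2 difference was -3.30 ± 0.47 (SE; edgeR adjusted p = 0.0136). In every library its level was a similar fraction of that of its neighbour, 23.1%, 29.6% and 26.3% in SCK and 28.8%, 32.0% and 34.7% in SR. No sequences of the pair were compared, so whether they are separate genes or parts of a single gene was not tested. If they are parts of a single gene, CmoCh18G001790 is not a further fall of the family. No source used here says how reads shared by similar genes were counted, so their separate values are uncertain if they share reads.

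The other 2 falls in this family were in weakly expressed genes. CmoCh03G009560 (BTB/POZ and TAZ domain-containing protein 4) fell from 6.11 ± 2.66 to 1.33 ± 0.175 FPKM, a log2 difference of -2.35 ± 0.39 (edgeR adjusted p = 0.0171; 0.0626 without SR replicate 3). CmoCh13G007980, another BT1-like gene, fell from 9.09 ± 1.20 to 4.13 ± 1.57 FPKM (adjusted p = 0.0415), and this call was lost without SCK replicate 1, SCK replicate 2, SR replicate 2 or SR replicate 3, with adjusted p from 0.0703 to 0.0982. A further 2 BT1-like genes were not called. CmoCh13G011670, at 93.1 ± 38.4 FPKM in SCK and 85.2 ± 18.9 in SR, had an adjusted p of 0.581. CmoCh18G005600 stood at 35.6, 3.64 and 16.7 FPKM in SCK, in the same order as the chosen gene, but at 8.17, 23.4 and 29.4 FPKM in SR, where it was highest in the library in which the chosen gene was lowest (adjusted p = 0.970). Over the 6 others the median log2 difference was -0.78, and leaving out a library other than SCK replicate 3 left 1 fall (without SR replicate 3) or 2 to 3 falls (with any other left out). The chosen gene held 65.5%, 67.3% and 65.9% of the family's summed FPKM in SCK and 42.2%, 25.2% and 10.7% in SR.

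The beta-galactosidases moved in both directions. Of 37 others, 18 were tested and 10 had no count in any library; 4 rose and 3 fell, with a median log2 difference of 0.51. The fall that came nearest to the chosen gene was that of CmoCh14G012990 (beta-galactosidase 1), the most abundant of the others, at 466, 237 and 306 FPKM in SCK and 75.2, 109 and 37.2 FPKM in SR. It followed the library order of the chosen gene in both groups, with a log2 difference of -2.34 ± 0.44 (edgeR adjusted p = 0.0208; 0.0566 without SR replicate 3). CmoCh06G012430 (beta-galactosidase 9) fell from 56.5 ± 6.22 to 27.3 ± 7.11 FPKM (adjusted p = 0.0200). CmoCh11G007050, which shares the product name of the chosen gene and lies 3648 bases from it with a single gene between them, fell from 18.8 ± 1.60 to 13.8 ± 0.696 FPKM, a log2 difference of -0.59 ± 0.13 (adjusted p = 0.0290; 0.0664 to 0.0995 without SCK replicate 1, SR replicate 2 or SR replicate 3).

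The 4 rises included 3 genes named for beta-galactosidase 3. CmoCh07G004530 rose from 2.37, 4.66 and 3.53 FPKM in SCK to 19.5, 34.0 and 30.0 FPKM in SR, a log2 difference of 2.85 ± 0.28 (edgeR adjusted p = 0.00942). CmoCh03G007380 rose from 6.91 ± 3.22 to 40.2 ± 20.5 FPKM (adjusted p = 0.0228; 0.0651 without SR replicate 3), and CmoCh16G006950 from 0.941 ± 0.515 to 3.90 ± 1.46 FPKM (adjusted p = 0.0348; 0.0584 to 0.113 without SCK replicate 1, SR replicate 2 or SR replicate 3). CmoCh01G000680 (beta-galactosidase 1-like) rose from 8.76 ± 0.648 to 16.9 ± 3.47 FPKM (adjusted p = 0.0207; 0.0527 to 0.0679 without SCK replicate 1, SCK replicate 2 or SR replicate 3). The remaining 2 genes with the bare name beta-galactosidase-like lie side by side on chromosome 10 and were not called: CmoCh10G007410 had means of 15.9 and 7.84 FPKM (adjusted p = 0.0803; 0.0412 without SR replicate 2) and CmoCh10G007420 of 5.23 and 8.16 FPKM (adjusted p = 0.0672). The family had 2 rises and 2 falls without SCK replicate 1, 1 rise and 1 fall without SR replicate 3, and 3 to 5 rises and 3 falls without SCK replicate 2, SR replicate 1 or SR replicate 2; DESeq2 without SCK replicate 3 called 4 rises and 3 falls. The chosen gene made up 40.4%, 42.8% and 43.7% of the summed FPKM of all beta-galactosidases in SCK and 12.1%, 8.96% and 4.97% in SR. Without it, the summed level of the others was 483 to 714 FPKM in SCK and 342 to 594 FPKM in SR, ranges that overlap.

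Of the other aminotransferases of the tyrosine family only 4 were tested and 0 were called, beside 14.4% of all tested genes. The second gene with the product name TAT2, CmoCh09G008350, was below the level needed for testing, at 0.628, 0.834 and 1.42 FPKM in SCK and 0.140, 0.294 and 0.250 FPKM in SR, so its groups did not overlap either. The other 4 are tyrosine aminotransferase-like genes, CmoCh02G000900 to CmoCh02G000930, which lie next to each other on chromosome 2 and ranged from 4.19 to 12.1 FPKM over all libraries. Their log2 differences lay between -0.44 and 0.14, with edgeR adjusted p from 0.111 to 0.951 (CmoCh02G000900, the most abundant of them, had the highest). The steep differences among control libraries were not theirs: CmoCh02G000900 stood at 6.90, 6.87 and 7.44 FPKM in SCK. TAT2 supplied 67.0%, 12.3% and 37.8% of the summed family level in SCK and 5.61%, 7.79% and 4.66% in SR.

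Genes known from dark or starved plants, picked by product name and without the chosen genes, were called in both directions, with more falls than rises. Of 90 such genes 74 were tested; 19 fell and 9 rose, and their median log2 difference was -0.19. Without scaling factors the split was 13 falls and 14 rises, against 4.91% falls and 11.1% rises over all genes, where the median of all genes stood at 0.14 in place of 0.01. Leaving out a library other than SCK replicate 3 left 11 falls and 2 rises (SCK replicate 1 out), 12 and 3 (SCK replicate 2 out), 17 and 12 (SR replicate 1 out), 13 and 1 (SR replicate 2 out) or 6 and 1 (SR replicate 3 out). DESeq2 without SCK replicate 3 called 20 falls and 10 rises. The summed level of the list was 5094 to 5699 FPKM in SCK and 2495 to 3874 FPKM in SR. The sum leans on abundant genes: CmoCh03G012750 alone had means of 1624 FPKM in SCK and 792 in SR.

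The falls with the smallest adjusted p were in a gene for TSJT1, a stem-specific protein first described in tobacco, and in enzymes that break down branched-chain amino acids in mitochondria. CmoCh09G008680 (TSJT1) fell from 68.8, 63.4 and 72.1 FPKM to 15.1, 14.8 and 12.8 FPKM, a log2 difference of -2.39 ± 0.12 (edgeR adjusted p = 0.00328). CmoCh09G010800, the alpha 1 subunit of 2-oxoisovalerate dehydrogenase, fell from 208 to 66.4 FPKM (log2 -1.80 ± 0.23, adjusted p = 0.0118). CmoCh06G015100, the lipoamide acyltransferase of the same complex, fell from 25.9 to 12.5 FPKM (log2 -1.19 ± 0.15, adjusted p = 0.0118). The most abundant gene of the list, CmoCh03G012750 (auxin-repressed protein-like), fell from 1624 to 792 FPKM (adjusted p = 0.0389), a call that was lost without scaling factors (0.0501) and with adjusted p from 0.0599 to 0.0812 without SCK replicate 1, SCK replicate 2, SR replicate 1 or SR replicate 3. The 9 rises were those of 3 EXORDIUM-like genes, 2 mannose-6-phosphate isomerases, a glutamate dehydrogenase, a beta-D-xylosidase 7, a chloroplast branched-chain aminotransferase and a galactinol-sucrose galactosyltransferase; another beta-D-xylosidase (CmoCh08G012350) and another galactinol-sucrose galactosyltransferase (CmoCh11G005230) were among the falls. Asparagine synthetase, the DIN6 enzyme, was picked out after its values were seen: CmoCh20G003640 stood at 29.6, 13.8 and 18.2 FPKM in SCK and at 10.3, 12.7 and 8.84 FPKM in SR, in the control order of the chosen genes, and narrowly missed the threshold (adjusted p = 0.0541). CmoCh02G007430, also named asparagine synthetase 1-like, had 7.42, 2.54 and 4.52 FPKM against 1.45, 5.10 and 1.84 FPKM (adjusted p = 0.276). The more abundant CmoCh07G005460 (asparagine synthetase 2-like) had means of 47.0 and 49.7 FPKM (log2 -0.05 ± 0.14, adjusted p = 0.838), and CmoCh03G008450 (asparagine synthetase 2) of 15.2 and 14.9 FPKM (log2 -0.18 ± 0.15, adjusted p = 0.435).

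Of 37 genes for SnRK1 subunits and trehalose phosphate synthases 34 were tested; 7 fell, 1 rose and 26 were not called, with a median log2 difference of -0.22. CmoCh11G001070 (trehalose phosphate synthase 10) fell from 13.2 to 6.22 FPKM (log2 -1.23 ± 0.11, edgeR adjusted p = 0.00942). CmoCh10G000620, a gene for the gamma-1 regulatory subunit of the kinase, fell from 60.1 to 22.9 FPKM (log2 -1.54 ± 0.26, adjusted p = 0.0168). Among the gamma-1-like genes CmoCh11G000380 also fell (log2 -0.99). CmoCh02G003960 (log2 -0.28), CmoCh04G017140 (log2 0.89) and CmoCh18G011950 (log2 0.43) were not called. No gene for the catalytic subunit KIN10 was called, and their lowest edgeR adjusted p was 0.107. The 1 rise was that of CmoCh06G006550 (trehalose phosphate synthase 5-like), from 3.76 to 11.1 FPKM (log2 1.43 ± 0.18, adjusted p = 0.0118). The most abundant gene, CmoCh01G013250 (trehalose phosphate synthase 1-like), had means of 51.2 and 70.7 FPKM and was not called (adjusted p = 0.125). Leaving out a library other than SCK replicate 3 left 2 falls without SR replicate 3 and 5 to 7 otherwise.

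Of 20 chlorophyll breakdown and senescence genes 18 were tested; 1 fell and 0 rose, a share of falls near the background, and the median log2 difference was -0.26. The fall was that of CmoCh11G006180 (chlorophyll b reductase NYC1), from 24.1 to 17.2 FPKM (log2 -0.62 ± 0.13, edgeR adjusted p = 0.0291), and among the libraries other than SCK replicate 3 only leaving out SR replicate 1 kept it; the adjusted p was 0.0535 to 0.0886 without the others. A second NYC1 gene and the most abundant of the list, CmoCh10G006560, had 105 and 109 FPKM (adjusted p = 0.792).

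In the tyrosine and tocopherol list 15 of 16 genes were tested, and 1 fell and 0 rose, a share of falls near the background. That gene, CmoCh01G013720, encodes 4-hydroxyphenylpyruvate dioxygenase, which acts on the product of tyrosine aminotransferase. It stood at 50.5, 22.2 and 30.7 FPKM in SCK and 4.19, 9.93 and 2.62 FPKM in SR, in the control order of TAT2 and also highest in SR replicate 2. Its log2 difference was -2.79 ± 0.54 (edgeR adjusted p = 0.0224), with an adjusted p of 0.0506 without SR replicate 1 and 0.0664 without SR replicate 3; leaving out SR replicate 1 gave 2 falls of other genes in the list, and leaving out SR replicate 3 gave 0. A second gene for 4-hydroxyphenylpyruvate dioxygenase, CmoCh09G007230, was higher in SR and not called (log2 0.38 ± 0.12, edgeR adjusted p = 0.0755). It stood at 17.3, 23.9 and 20.5 FPKM in SCK and 29.3, 29.5 and 29.2 FPKM in SR. The most abundant gene of the list, CmoCh02G006470 (glutathione S-transferase zeta class), had means of 40.6 and 47.0 FPKM (adjusted p = 0.654).

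**Figure D3:**
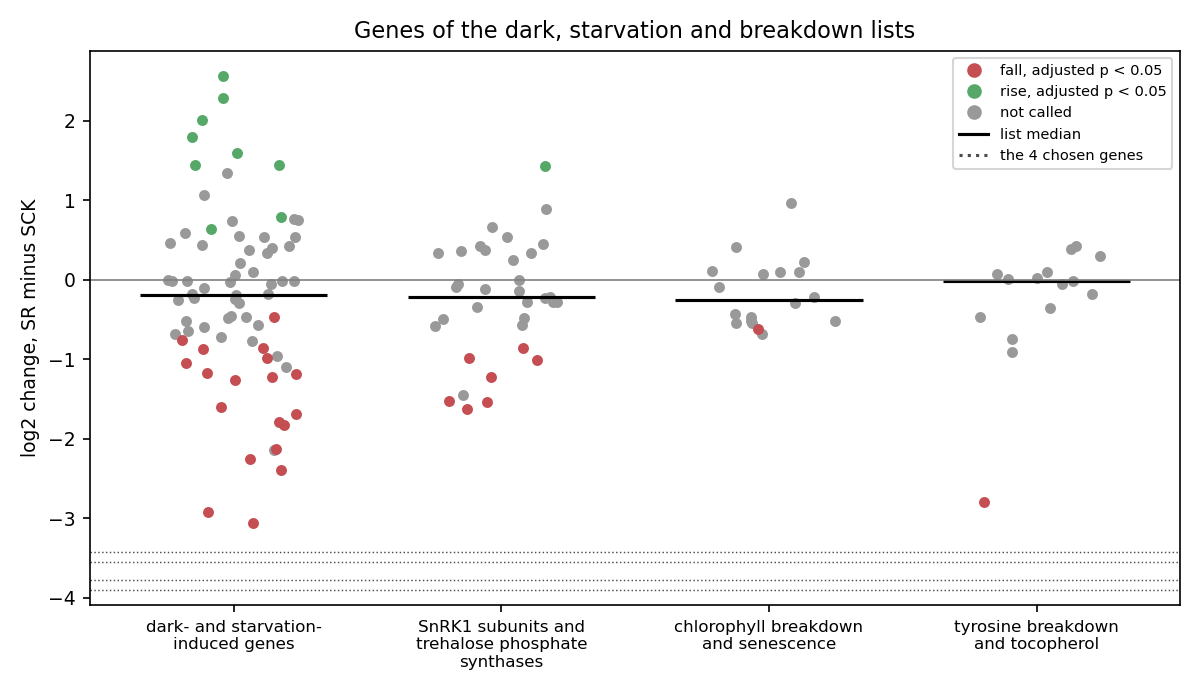
Log2 difference, SR minus SCK, of every tested gene in the 4 lists of dark, starvation and breakdown genes, 1 point per gene, coloured by its call, with the list medians as lines. The dark and starvation list holds 19 falls and 9 rises among 74 genes, while the medians of all 4 lists lie between -0.26 and -0.02.

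The genes with the profiles nearest to each chosen gene were found by the root mean square difference of centred log2(FPKM + 1) over the 6 libraries, and they are described without a test because the same values chose them. For the rhodanese-like gene the nearest were CmoCh13G008560 (sugar transporter SWEET12-like), at a difference of 0.548, CmoCh08G012350 (beta-D-xylosidase 1-like, of the dark and starvation list), at 0.573, and CmoCh03G006740 (ammonium transporter 3 member 2-like), at 0.598. For BT1-like the nearest was the adjacent gene CmoCh18G001790, at 0.230, ahead of 2 uncharacterized genes, CmoCh17G002280 at 0.504 and CmoCh01G003040 at 0.512. For the beta-galactosidase-like gene they were CmoCh11G004290 (a WAT1-related protein), at 0.244, CmoCh01G012530 (TSJT1-like), at 0.282, and again CmoCh18G001790, at 0.284. The nearest to TAT2 were CmoCh02G002850 (a flavin-containing monooxygenase), at 0.117, CmoCh14G006650 (carbonic anhydrase 2-like), at 0.207, and CmoCh04G000450 (an MLP-like protein), at 0.355. On this scale the profile of TAT2, with its wide control spread, had closer companions than that of the rhodanese-like gene. Adding 1 shrinks differences at the low FPKM of TAT2, so these distances are not directly comparable between the genes. The carbonic anhydrase gene is also one of the leaf mesophyll markers described below.

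The genes that flank the 4 were examined after values had been seen. Of the 3 genes on each side, 24 in all, 18 were tested, 8 fell and 1 rose, beside 7.16% falls and 7.20% rises over all tested genes. The falls include CmoCh18G001790 and CmoCh11G007050, already counted in their families, and the count itself was not tested. The most marked was CmoCh03G006740, the ammonium transporter gene named above, which starts 976 bases beyond the rhodanese-like gene on the same strand: it stood at 113, 20.3 and 51.5 FPKM in SCK and 2.87, 4.84 and 2.29 FPKM in SR. On the other side of the rhodanese-like gene, CmoCh03G006720 (thiol-disulfide oxidoreductase LTO1), on the opposite strand, fell from 53.8 to 32.0 FPKM (edgeR adjusted p = 0.0232). Next to BT1-like, beyond CmoCh18G001790, CmoCh18G001800 (pectate lyase 5) rose from 64.9 to 207 FPKM (adjusted p = 0.0152). Beside the beta-galactosidase-like gene, CmoCh11G007020 (GATA transcription factor 21-like) fell from 2.60 to 0.738 FPKM (adjusted p = 0.0208). Of the 6 genes around TAT2 only 2 were tested, and CmoCh01G012840 (SUMO ligase MMS21) fell from 17.1 to 12.2 FPKM (adjusted p = 0.0315).

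**Figure D4:**
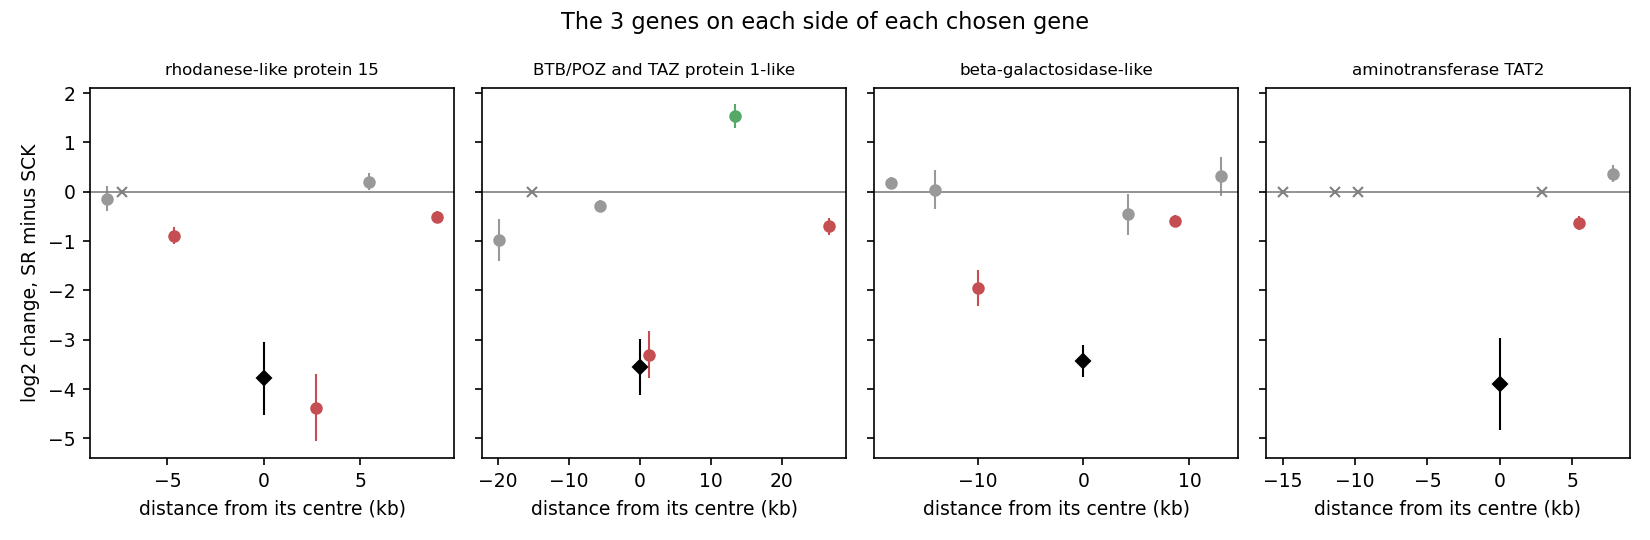
Log2 difference, SR minus SCK, with its SE of the 3 genes on each side of each chosen gene, by distance in kb between gene centres; the black diamond is the chosen gene, red points fell, green points rose, grey points were not called and crosses at 0 were not tested. The neighbours nearest in size to a chosen gene are CmoCh03G006740, beside the rhodanese-like gene, and CmoCh18G001790, beside BT1-like.

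Lists of markers of other cell types held called genes, and their part in the levels of the 4 genes was not tested. Leaf and cotyledon mesophyll markers (54 genes, 38 tested) had 13 falls and 1 rise, a median log2 difference of -0.72 and 6 genes without a count. Their summed level was 16652, 10065 and 12678 FPKM in SCK, in the control order of the 4 genes, and 8237 to 10103 FPKM in SR, ranges that overlap. The most abundant of them, the Rubisco small subunit gene CmoCh04G015760, stood at 5728, 2307 and 3697 FPKM in SCK and 2487, 2642 and 2019 FPKM in SR (edgeR adjusted p = 0.144). The falls numbered 6 when either SCK replicate 1 or SR replicate 2 was left out, and 1 when SR replicate 3 was. Xylem and secondary wall markers (29 genes, 16 tested) had 5 rises and 0 falls, with summed levels of 68.9 to 93.7 FPKM in SCK and 116 to 194 FPKM in SR, and phloem markers (25 genes, 23 tested) had 6 rises and 0 falls, with sums of 3489 to 3754 and 3299 to 5688 FPKM. Genes of handling and heat stress (65 genes, 53 tested) had 12 rises and 2 falls, with sums of 1395 to 1713 FPKM in SCK and 1782 to 2151 FPKM in SR. Seed storage and oil body markers (24 genes, 7 tested) had 1 rise and 0 falls, with sums of 26.2 to 35.2 and 31.0 to 39.0 FPKM and 7 genes without a count. The median log2 differences of the xylem, phloem, heat stress and seed lists were 1.98, 0.86, 0.43 and 0.04. The most abundant genes of these lists were not called. CmoCh06G002890 (laccase-17-like) had SCK and SR means of 24.3 and 25.9 FPKM, and CmoCh04G027740 (16 kDa phloem protein 2) of 2217 and 2218 FPKM. CmoCh13G007610 (class V heat shock protein) had 522 and 283 FPKM (edgeR adjusted p = 0.0577), and CmoCh16G009130 (2S albumin-like) 9.55 and 14.4 FPKM. With SCK replicate 2 left out there were 0 phloem and 7 handling and heat stress rises. With SR replicate 3 left out there were 1 xylem, 1 phloem and 3 handling and heat stress rises, and with SR replicate 2 left out 2 xylem, 2 phloem and 7 handling and heat stress rises. Leaving out SCK replicate 1 gave 3 handling and heat stress rises. The seed storage rise was lost without SCK replicate 1, SCK replicate 2 or SR replicate 3, and leaving out SR replicate 1 gave 4 phloem rises.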

How the data were processed

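The authors deposited 1 table of 32205 genes with whole-number counts and FPKM values, per the file headers; 1 column of each unit per library was used, and 6 further value columns matching no sample were not. HISAT and StringTie are named, without versions, per the submitters' processing notes. The kit was stranded, with inserts of about 300 bp, per the labels' protocols; no source used here gives the build, the annotation or the counting of shared reads. The count 4 occurred 1350 times, against 567 for 3 and 516 for 5, so 1 read pair may be worth about 4 deposited counts. FPKM was 0.0001 wherever the deposited count was 0. Products are those of the table; 2723 genes have none.

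Counts were fitted with edgeR 4.0.16 (R 4.3.3; TMM factors, glmQLFit and glmQLFTest, group as the only term) over genes reaching an FPKM of 1 in 3 or more libraries; a call needs an adjusted p (Benjamini-Hochberg) under 0.05, and SE is the log2 difference over the root of F. The script was tested on simulated data. The TMM factors were 0.926 to 0.976 in SCK and 1.01 to 1.08 in SR. They were not applied to the FPKM values, so a log2 difference can be lower than the FPKM means show. DESeq2 1.42.0 and limma 3.58.1 were alternatives. The chosen genes, the lists (by product name) and the rules were set with earlier results of these data known. Named are the 4 genes; in each family the called genes, the most abundant gene and those with the product name of the chosen gene; in each pathway list the 3 called genes with the smallest adjusted p and the most abundant; and the 3 nearest profiles of each chosen gene.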

Additional observations from a re-analysis of the deposited data

How the results depend on the processing

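The signs of the 4 differences and of all 28 called genes named by the rule above were the same in every alternative. Called genes named outside that rule, such as the flanking genes, were not followed through the alternatives. These 28 include the called genes among the nearest profiles. The same values chose those genes and the 4, so for them this is a description only. Of those 28, still called were 27 without scaling factors, 24 by limma with either pseudocount, 18, 22 and 0 with SCK replicate 1, 2 or 3 left out, and 23, 21 and 14 with SR replicate 1, 2 or 3 left out; all 28 were called with RLE factors, by DESeq2, without the FPKM filter, with counts divided by 4, and by DESeq2 without SCK replicate 3, an alternative added after seeing the data. Against 3375 calls (1692 rises, 1683 falls), DESeq2 gave 6026 (3048 and 2978), no scaling factors gave 2602 rises, and limma gave 1088 falls on log2(FPKM + 1) and 1055 on log2(FPKM + 0.1). The TAT2 difference was -2.57 by limma on log2(FPKM + 1) and -3.07 on log2(FPKM + 0.1).

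In the families and lists, rises became 1 by both limma fits for rhodanese-like genes and for chlorophyll breakdown genes (whose falls became 0 by both and 3 by DESeq2). Rises became 14 in the dark and starvation list without scaling factors and by DESeq2. In the SnRK1 list they became 3 by the same fits, and 2 with counts divided by 4 and by DESeq2 without SCK replicate 3. In the tyrosine list rises became 2 without scaling factors, by DESeq2 and by both limma fits, and falls 3 by DESeq2. Leaving out 1 library gave 0 to 3437 calls in all, 0 to 1830 rises and 0 to 1607 falls. The falls ran from 0 to 2 for rhodanese-like genes, 0 to 3 for BTB/POZ and TAZ genes, 0 to 3 for beta-galactosidases (rises 0 to 5), 0 to 17 for the dark and starvation list (rises 0 to 12), 0 to 7 for the SnRK1 list (rises 0 to 2), 0 to 1 for chlorophyll breakdown and 0 to 2 for the tyrosine list. The difference ran from -4.51 to -3.26 for the rhodanese-like gene, -4.10 to -3.14 for BT1-like, -3.66 to -3.16 for the beta-galactosidase-like gene and -4.41 to -2.67 for TAT2. The cause of these changes was not tested.

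Replicate numbers recur in both groups. Deviations of same-numbered libraries from their group means correlated at -0.146, -0.249 and 0.0879 over 23509 genes. Deviations within a group of 3 libraries sum to 0 for each gene, which ties these correlations together. They therefore cannot tell whether same-numbered libraries were paired. With the number as a replicate block edgeR called 0 genes in every family and list and 0 in all, with 6564 genes at an unadjusted p under 0.05; not every library correlated best with its own number. TAT2, with 157 counts in its lowest library, is the least precisely counted of the 4.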
